A study of Mus musculus with 2 samples.

Results

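The methylated regions of mouse chromosome 7 were described in the germinal layer and the neuronal layer of the embryonic cortex. They were all listed peaks of the 4 deposited peak tables that lie on chromosome 7, each counted once per table, and they numbered 8933 of 147297 peaks. The V/SVZ is the ventricular and subventricular zone, which is rich in neuronal progenitors, and the cortical plate (CP) is rich in neurons that are differentiating. Both tissues were dissected by hand from ICR mouse embryos at embryonic day 16, and their genomic DNA was enriched for methylated fragments and sequenced. The labels name no allele, transgene or treatment for either group, and the number of embryos behind a library is not given in the sources used here. There was 1 library per tissue. No difference therefore has a replicate error or a test, and all intervals are 95% intervals that cover counting error only. Dissected layers hold several cell types, so a different share of cells of a type and a different methylation per cell cannot be told apart, and DNA peaks do not check the labelled tissue against expressed markers.

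A control peak is a region where a library had more tags (aligned reads) than a control. A direct peak is a region called in a library against the library of the other tissue. Chromosome 7 held 3187 of 52283 V/SVZ control peaks and 3296 of 53404 CP control peaks. It held 1140 of 21914 V/SVZ over CP peaks and 1310 of 19696 CP over V/SVZ peaks. The chromosome was chosen because its ratio of CP over V/SVZ to V/SVZ over CP peaks was the highest among autosomes, so its members were chosen by measured values and this ratio of 1.15 (1.06 to 1.25) is a description. The autosome next to it in that order was chromosome 3, at 1.01, and the lowest was chromosome 5, at 0.717. Chromosome 7 remained first when direct peaks outside a control peak of the same tissue were left out, but the ratio was then 1.00 (0.917 to 1.10), from 952 and 948 peaks. Chromosome 3 was then at 0.945. The listed control peaks ended at a fold over expectation of 11.48 for V/SVZ and 14.71 for CP, so this limit does not treat the 2 direct lists alike. The false discovery rate in the deposited tables was 100% for every CP over V/SVZ peak and had a median of 71.49% for the V/SVZ over CP peaks of the chromosome.

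Methylation of cytosine in CG dinucleotides is copied at cell division and, at a promoter dense in CG, is associated with a silent gene. At imprinted genes a region near the promoter is methylated on the copy from a single parent only. Mouse chromosome 7 is known for several imprinted domains, around Peg3, Snrpn and Ube3a, Igf2 and H19, and Kcnq1. It also carries large clusters of olfactory receptor, vomeronasal receptor, zinc finger, kallikrein and pregnancy-specific glycoprotein genes.

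The sequences shown first are promoters of genes whose start was overlapped by a CP over V/SVZ peak, because such a call lies at a gene start. Every peak of that list had a false discovery rate of 100%, so a difference between the layers at these starts is not established. Each sequence is the RefSeq window of 300 bases, from 250 bases before to 50 bases after the start, written 5′ to 3′ on the gene's strand in build GRCm38.p6, with every CG dinucleotide in capitals. The peaks are in build mm9, and their coordinates were not converted, so whether a peak covers the whole window was not determined. Rbmxl2 lies at chr7:107209195-107209494 on the plus strand, Olfr1349 at chr7:6515378-6515677 on the minus strand and Ffar1 at chr7:30861421-30861720 on the minus strand. Peg3 lies at chr7:6730370-6730669 on the minus strand, Prodh2 at chr7:30493408-30493707 on the plus strand, Mkrn3 at chr7:62420104-62420403 on the minus strand and Peg12 at chr7:62464461-62464760 on the minus strand. Mkrn3 and Peg12 were added after their values were seen, as further imprinted genes.
Rbmxl2: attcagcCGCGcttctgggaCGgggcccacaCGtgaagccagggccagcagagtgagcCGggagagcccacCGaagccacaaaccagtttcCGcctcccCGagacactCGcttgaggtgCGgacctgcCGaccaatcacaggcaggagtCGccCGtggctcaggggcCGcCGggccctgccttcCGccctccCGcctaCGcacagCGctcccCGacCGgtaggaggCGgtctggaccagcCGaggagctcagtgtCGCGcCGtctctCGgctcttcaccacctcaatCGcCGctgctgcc
Olfr1349: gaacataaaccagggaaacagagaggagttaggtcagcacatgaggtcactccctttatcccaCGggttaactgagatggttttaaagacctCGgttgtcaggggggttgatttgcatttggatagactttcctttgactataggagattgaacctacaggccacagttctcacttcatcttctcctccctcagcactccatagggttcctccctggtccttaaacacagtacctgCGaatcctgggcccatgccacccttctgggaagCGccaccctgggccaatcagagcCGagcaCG
Ffar1: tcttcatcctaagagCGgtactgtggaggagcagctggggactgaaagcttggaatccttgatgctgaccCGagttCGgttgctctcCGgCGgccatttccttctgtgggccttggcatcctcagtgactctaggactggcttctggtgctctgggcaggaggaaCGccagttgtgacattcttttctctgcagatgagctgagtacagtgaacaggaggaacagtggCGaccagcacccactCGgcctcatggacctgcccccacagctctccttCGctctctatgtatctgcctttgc
Peg3: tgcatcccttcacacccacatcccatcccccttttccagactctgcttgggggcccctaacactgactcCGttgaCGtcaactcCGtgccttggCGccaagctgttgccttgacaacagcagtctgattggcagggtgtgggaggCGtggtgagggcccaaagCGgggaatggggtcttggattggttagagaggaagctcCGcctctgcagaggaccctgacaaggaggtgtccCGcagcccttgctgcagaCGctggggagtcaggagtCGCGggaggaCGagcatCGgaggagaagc
Prodh2: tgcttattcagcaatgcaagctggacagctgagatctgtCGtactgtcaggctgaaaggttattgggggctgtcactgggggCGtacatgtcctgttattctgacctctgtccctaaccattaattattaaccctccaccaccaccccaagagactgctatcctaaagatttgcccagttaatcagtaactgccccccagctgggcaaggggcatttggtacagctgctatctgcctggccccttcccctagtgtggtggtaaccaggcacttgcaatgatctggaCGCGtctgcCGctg
Mkrn3: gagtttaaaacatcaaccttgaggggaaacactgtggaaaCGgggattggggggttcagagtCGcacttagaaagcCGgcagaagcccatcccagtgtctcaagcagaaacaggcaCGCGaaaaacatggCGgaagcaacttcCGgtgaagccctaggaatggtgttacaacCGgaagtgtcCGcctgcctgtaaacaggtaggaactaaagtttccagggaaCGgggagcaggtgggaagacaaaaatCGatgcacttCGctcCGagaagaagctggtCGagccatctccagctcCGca
Peg12: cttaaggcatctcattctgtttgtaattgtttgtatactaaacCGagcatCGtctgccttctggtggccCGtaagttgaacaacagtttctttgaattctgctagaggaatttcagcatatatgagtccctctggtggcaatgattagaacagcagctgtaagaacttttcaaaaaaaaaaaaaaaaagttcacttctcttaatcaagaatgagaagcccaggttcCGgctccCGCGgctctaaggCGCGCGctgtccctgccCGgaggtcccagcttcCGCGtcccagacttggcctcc

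The 7 windows differed widely in their number of CG dinucleotides. Rbmxl2 held 29, and 12.9% of the 32851 mouse promoter windows in the same table held at least as many. Mkrn3 held 15, Peg3 held 13 and Peg12 held 12, numbers reached by 34.6%, 37.9% and 39.6% of windows. Ffar1 held 9, Olfr1349 held 6 and Prodh2 held 5, numbers reached by 45.8%, 56.4% and 62.0% of windows. The motif searched was CG, which reads the same on both strands, and 94.6% of all windows held it at least once. The median was 7 per window over all promoters and 6 over the 2790 on chromosome 7. It was 12 for 31 of 39 genes with a V/SVZ control peak at the promoter, 11 for 40 of 46 genes with a CP control peak there and 9 for 15 of 18 genes with a CP over V/SVZ peak there, the others having no window in the table. Of the genes with a V/SVZ over CP peak at the promoter, 0 of 5 had a window.

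Peaks over a gene start were few in all 4 lists. A promoter peak is here a peak that overlaps the start of a transcript or covers it whole. The CP over V/SVZ list had 17 such peaks, 1.30% (0.812% to 2.07%) of its chromosome 7 peaks, against 0.850% on the other autosomes and 2.11% over all chromosomes with X. The V/SVZ over CP list had 5, 0.439% (0.187% to 1.02%), against 0.234% on the other autosomes and 0.246% over all chromosomes. Among control peaks, 37 V/SVZ peaks (1.16%) and 43 CP peaks (1.30%) overlapped a promoter, against 0.872% and 1.20% over all chromosomes and 0.649% and 0.715% on the other autosomes. Counting peaks within 1 kb upstream as well gave 26 and 19 in place of 17 and 5 direct promoter peaks. The direct lists were used in choosing the chromosome, so nothing is read from their shares.

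Of the 17 CP over V/SVZ promoter peaks, 10 overlapped a listed control peak in both tissues. The tag ratios of CP to V/SVZ at these ran from 2.73 to 5.94 with a median of 3.99. The call itself asks for more CP tags, so these sizes describe the peaks that were called. The median over all shared control peaks of the chromosome was 1.91. These ratios were not scaled for depth, because no source used here gives the total reads of a library. Of the other peaks, 4 overlapped a control peak in CP only, with 11 to 39 tags, at Olfr658, Prr19, Acsm1 and Lsp1, and 3 overlapped none, at Fiz1, Ckm and Cox8b.

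Rbmxl2, a retrogene for an RNA-binding protein of male germ cells, had the most significant promoter peak, at chr7:114352713-114354299 in mm9. CP had 190 tags there, V/SVZ had 32 over 2 separate control peaks, and the ratio was 5.94 (4.07 to 8.93). Its window, printed above, was the densest in CG of the 7 shown. Prr19, whose protein takes part in meiotic crossing over in mice, had 39 CP tags and no listed V/SVZ control peak. Both genes were taken from the CP over V/SVZ list, and other germ cell promoters had no direct peak, as described with the shared promoters.

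The imprinted genes Peg3 and Usp29, which share a promoter region and are expressed from the paternal copy, were overlapped by a peak at chr7:6681884-6683848. CP had 262 tags there and V/SVZ 51, a ratio of 5.14 (3.79 to 7.08). Peg12, at chr7:69607995-69609519, had 193 tags in CP and 50 in V/SVZ, a ratio of 3.86 (2.82 to 5.38). Mkrn3, a makorin gene linked to the timing of puberty in humans, had 187 tags in CP and 64 in V/SVZ at chr7:69563850-69565264, a ratio of 2.92 (2.19 to 3.94). These 3 were picked from the CP over V/SVZ list, so the side they lie on was set by that choice. The imprinted promoters without a direct peak, at Snrpn and Snurf and at Ndn, are given with their domain.

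Olfr1349 and Olfr1344, olfactory receptor genes that lie near Peg3, had peaks of 290 and 308 tags in CP. V/SVZ had 72 and 113 tags there, and the ratios were 4.03 (3.10 to 5.29) and 2.73 (2.19 to 3.41). Olfr658, in a distant cluster of the same family, had 17 CP tags and no listed V/SVZ control peak. Receptor promoters thus ranged from among the most tag-rich to among the least tag-rich of the list.

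The remaining promoter peaks of the list lay at genes of other kinds. Ffar1, a free fatty acid receptor of pancreatic beta cells, had 151 tags in CP and 38 in V/SVZ, a ratio of 3.97 (2.77 to 5.83). Prodh2, an enzyme of hydroxyproline breakdown, had 84 and 21, a ratio of 4.0 (2.46 to 6.80). Cd79a, a signalling subunit of the B cell receptor, had 21 and 6, a ratio of 3.50 (1.37 to 10.6). Ckm, the creatine kinase of muscle, and Cox8b, a cytochrome oxidase subunit of heart and skeletal muscle, had direct peaks of 23 and 17 CP tags in neither control list. Fiz1, a zinc finger gene, had 143 CP tags in a direct peak that lay in neither control list, although that list ended at a fold of 14.71 and an unlisted control peak may lie there. Lsp1, an actin-binding protein of leukocytes, had 13 tags, Acsm1, an acyl-CoA synthetase, had 11, and B430211C08Rik had 58 in CP against 10 in V/SVZ, a ratio of 5.80 (2.94 to 12.7).

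The 5 V/SVZ over CP promoter peaks were small. Lrrc32, a surface protein of regulatory T cells, and Zg16, a zymogen granule protein, had 17 V/SVZ tags each. Snord35b, a small nucleolar RNA gene, had 12 tags, and Zscan5b, a zinc finger gene, and Hmg1l1 had 8 each. At these 5 genes 0 peaks overlapped a listed CP control peak, so no ratio is given. The most tag-rich of them had 17 tags, whereas the CP over V/SVZ promoter peaks had a median of 84.

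**Figure D1:**
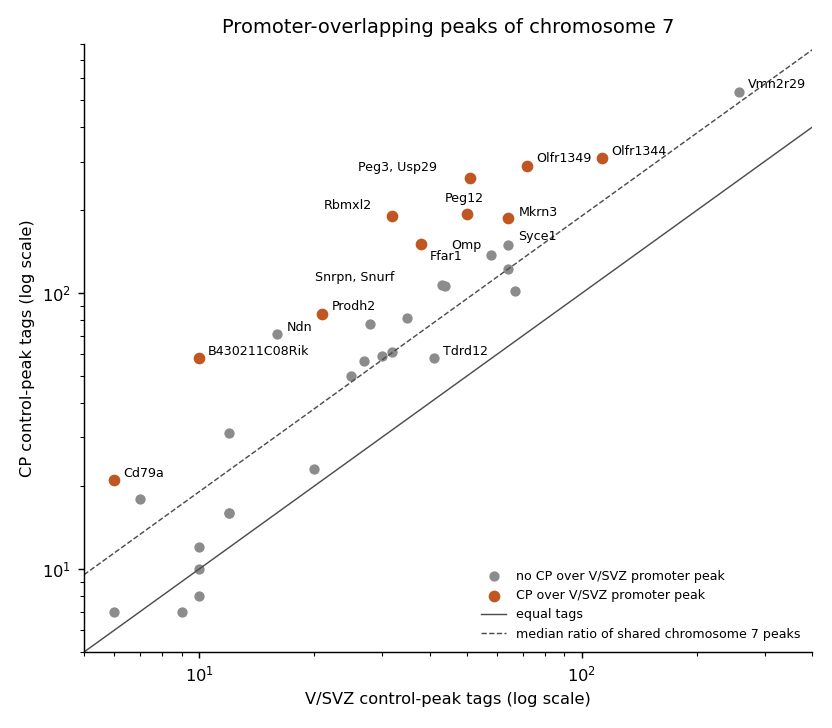
Tags of each chromosome 7 promoter peak listed over control in both tissues, with V/SVZ tags on the x axis and CP tags on the y axis, both on log scales. Each point is a CP control peak at a promoter, coloured where a CP over V/SVZ peak overlaps the same promoter, with a dashed line at the median ratio of 1.91. Peg3 lies at 51 and 262 tags and Vmn2r29 at 257 and 536, and coloured points were selected by the CP over V/SVZ call.

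Many promoters were methylated in both layers without a direct peak. Genes with a control peak at the promoter numbered 39 in V/SVZ and 46 in CP. By gene name, 32 were in both sets, 7 in V/SVZ only and 14 in CP only. A gene in CP only can still have an overlapping V/SVZ control peak, as at Olfr1344 and Prodh2. By overlap, 35 of 43 CP promoter peaks met a V/SVZ control peak, and 30 of 37 V/SVZ promoter peaks a CP control peak. Over all control peaks of the chromosome, 64.9% of CP and 67.4% of V/SVZ peaks met a peak of the other tissue. The vomeronasal receptor gene Vmn2r29 had the most tags in both tissues, with 257 for V/SVZ and 536 for CP and a ratio of 2.09 (1.79 to 2.43). Syce1, a component of the synaptonemal complex of meiosis, had 64 and 149 tags, a ratio of 2.33 (1.73 to 3.17). A peak shared by Dmrtc2, a germ cell transcription factor, and Lypd4, a sperm protein, had 64 and 122 tags, a ratio of 1.91 (1.40 to 2.62). Myh14, a nonmuscle myosin, had 67 and 102, a ratio of 1.52 (1.11 to 2.10).

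Further promoters without a direct peak were named after their values were seen. Omp, the marker protein of mature olfactory neurons, had 58 and 138 tags, a ratio of 2.38 (1.74 to 3.29). Tdrd12, which acts in the piRNA pathway of germ cells, had 41 and 58, a ratio of 1.41 (0.932 to 2.16), and Tex101, a germ cell surface protein, had 27 and 57, a ratio of 2.11 (1.31 to 3.47). The neighbouring genes Cacng7, Cacng8 and Cacng6, which encode auxiliary subunits of AMPA receptors or calcium channels, had 35 and 81, 44 and 106, and 12 and 31 tags. Their ratios were 2.31 (1.54 to 3.55), 2.41 (1.68 to 3.51) and 2.58 (1.29 to 5.52). The intervals of these 6 genes all contained the median ratio of shared peaks.

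Along the chromosome, the numbers of control peaks in both layers were close over the first 35 Mb and over the rest, while the direct peaks had a CP excess near the start and a near balance further on. Single bins differed more, with CP to V/SVZ control-peak ratios of 1.29, 1.37, 1.41, 1.33 and 1.26 in bins 2, 3, 13, 14 and 23. The chromosome was divided into 31 bins of 5 Mb. The first 35 Mb, bins 1 to 7, held 900 V/SVZ and 929 CP control peaks, a ratio of 1.03. They held 268 V/SVZ over CP and 446 CP over V/SVZ peaks, a ratio of 1.66 (1.43 to 1.94). Bins 8 to 31 held 872 and 864 direct peaks, a ratio of 0.991 (0.901 to 1.09), with the same control-peak ratio of 1.03. Promoter direct peaks numbered 1 for V/SVZ and 10 for CP in bins 1 to 7, and 4 and 7 in the rest. These segments were drawn after the bins were seen, from lists the choice of chromosome had used, and are a description.

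Per 100 listed control peaks of the same tissue, bins 1 to 7 held 29.8 V/SVZ over CP and 48.0 CP over V/SVZ peaks. Bins 8 to 31 held 38.1 and 36.5. The cut of the control lists also enters these values. Over the whole chromosome the values were 35.8 and 39.7. Each of the 7 first bins had more CP over V/SVZ than V/SVZ over CP peaks, and 10 of the 23 later bins with peaks did. An excess near the start was not confined to chromosome 7. Over the first 35 Mb the other autosomes ranged from 0.807 on chromosome 2 to 1.49 on chromosome 3, beside 1.66 on chromosome 7. Over the rest they ranged from 0.630 on chromosome 19 to 0.929 on chromosome 18, beside 0.991 on chromosome 7. Each of the other autosomes except chromosome 2 (0.807 and 0.830) had a higher ratio over its first 35 Mb than over the rest. The boundary was drawn on chromosome 7 after its bins were seen, and the chromosome was chosen by this kind of ratio. Nothing is therefore read from its place among the autosomes. The first 35 Mb of a mouse chromosome adjoin its centromere.

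**Figure D2:**
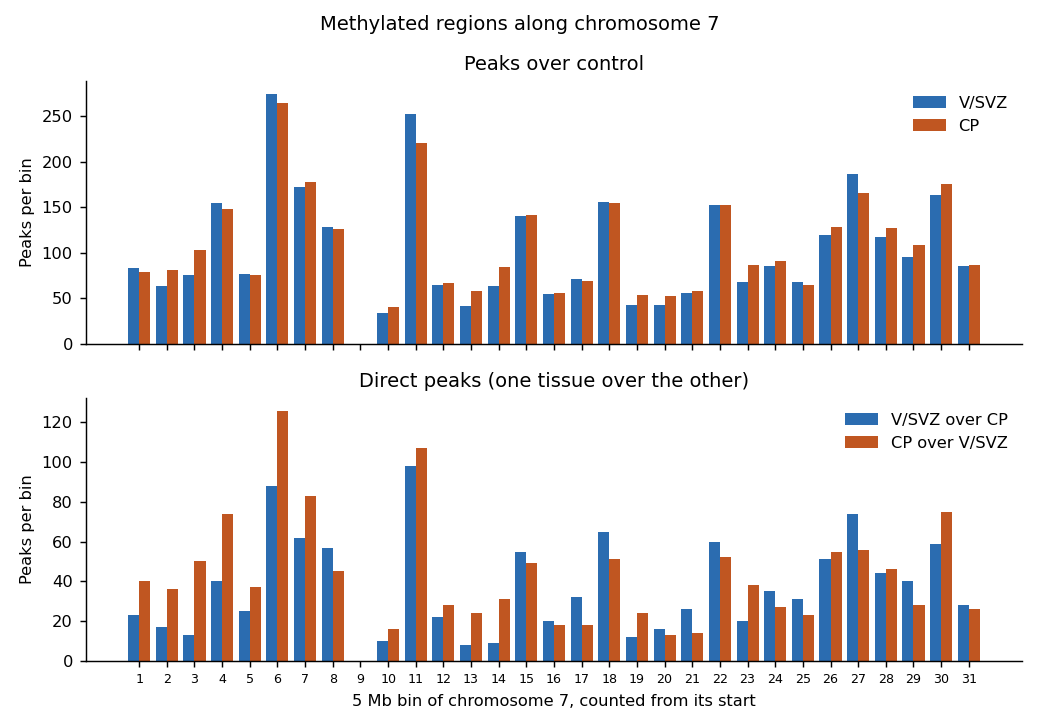
Number of peaks per 5 Mb bin along chromosome 7, with the bin number on the x axis, control peaks of V/SVZ and CP in the upper panel and direct peaks in the lower panel. The CP over V/SVZ bar is the higher in bins 1 to 7, and bin 9 holds no peak.

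The bin with the highest ratio was bin 3 (10 to 15 Mb), with 13 V/SVZ over CP and 50 CP over V/SVZ peaks, a ratio of 3.85 (2.06 to 7.72). No gene in it held more than 2 CP over V/SVZ peaks, the number at 6330408A02Rik, Gm5584 and the zinc finger gene Zfp446. Bin 2 (5 to 10 Mb), with Peg3, Usp29 and the vomeronasal genes V1rd10 and Vmn2r29, held 17 and 36, a ratio of 2.12 (1.16 to 4.02). Bin 6 (25 to 30 Mb) held the most direct peaks, 88 and 126, a ratio of 1.43 (1.08 to 1.90), led by Ryr1, the calcium release channel of muscle, with 8 CP over V/SVZ peaks and 2 of the opposite list.

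A second stretch with a high pooled ratio lay at 55 to 70 Mb, in bins 12 to 14, with 39 and 83 direct peaks and a ratio of 2.13 (1.44 to 3.20). It was drawn after the bins were seen. Bin 12 held 22 and 28, a ratio of 1.27 (0.702 to 2.33), so the high values were those of bins 13 and 14. Outside the stretch, bin 10 had a ratio of 1.60 (0.683 to 3.94) and bin 19 of 2.0 (0.962 to 4.39). Bin 14 held 9 and 31, a ratio of 3.44 (1.60 to 8.23), and contains Ube3a, Snrpn, Ndn, Mkrn3, Peg12 and Atp10a. Bin 13 held 8 and 24, a ratio of 3.0 (1.30 to 7.72), and contains Gabrg3, a GABA-A receptor subunit, and Herc2, a ubiquitin ligase. These 3 bins also had more CP than V/SVZ control peaks, 209 against 169, and a median tag ratio of 2.29 at 138 shared peaks. The next 4 bins, at 70 to 90 Mb, each had more V/SVZ over CP peaks, 172 against 136 in all, a ratio of 0.791 (0.627 to 0.996).

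The lowest ratio was in bin 21 (100 to 105 Mb), with 26 V/SVZ over CP and 14 CP over V/SVZ peaks, a ratio of 0.538 (0.260 to 1.07). In that bin Odz4, a teneurin of neuronal wiring, held 15 of the V/SVZ over CP peaks and 3 of the opposite list. Bin 17 (80 to 85 Mb) held 32 and 18, a ratio of 0.562 (0.297 to 1.03), with 5 V/SVZ over CP peaks at Chd2, a chromatin remodeller. Bin 23 (110 to 115 Mb), with olfactory receptor genes and the beta globin genes, held 20 and 38, a ratio of 1.90 (1.08 to 3.45). Of the 30 bins with peaks, 17 (56.7%) had a ratio above 1. The share was 46.7% when only direct peaks that overlap their own tissue's control peaks were counted, a limit that the cut of the control lists also enters. The 56.7% follows from the choice of the chromosome, and 43.0% of 456 bins with at least 20 direct peaks on the other autosomes had a ratio above 1.

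**Figure D3:**
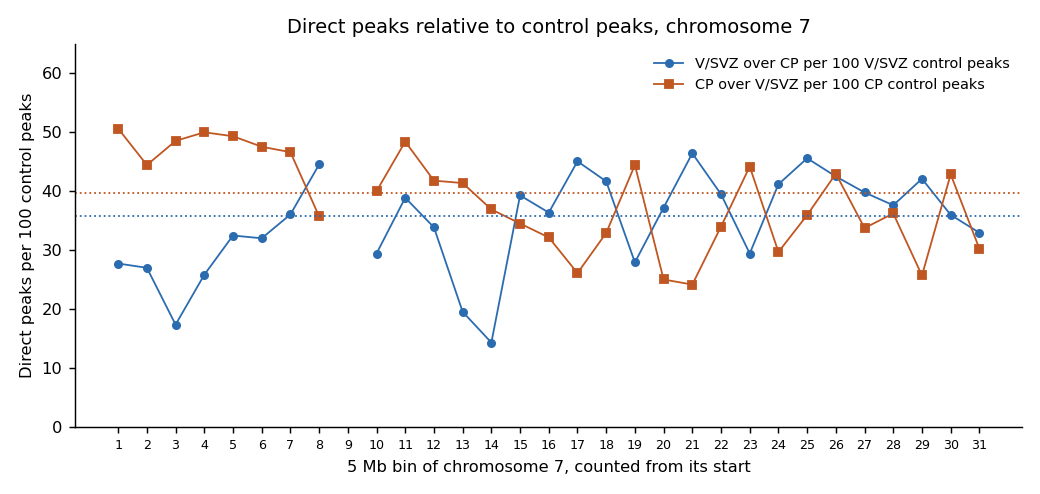
Direct peaks per 100 control peaks of the same tissue in each 5 Mb bin of chromosome 7, with the bin number on the x axis and dotted lines at the chromosome's values of 35.8 and 39.7. The CP over V/SVZ line lies between 44.4 and 50.6 in bins 1 to 7, above the V/SVZ over CP line, and the lines cross several times after bin 7.

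No table held a peak between positions 39155435 and 46530894, a stretch of 7.38 Mb that takes in the whole of bin 9. The next longest stretch without a peak on the chromosome was 1.27 Mb. The region was not analysed here.

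Shared methylated regions were compared next. The overlap of control peaks was not itself used to choose the chromosome, but it is not independent of that choice. Of the 948 V/SVZ over CP peaks in a V/SVZ control peak, 642 met no listed CP control peak. Of the 952 CP over V/SVZ peaks in a CP control peak, 602 met no listed V/SVZ control peak. Nothing is therefore read from differences in sharing with the other autosomes. Of the V/SVZ control peaks, 2148 (67.4%, 65.8% to 69.0%) overlapped a CP control peak, against 63.9% on the other autosomes. Of the CP control peaks, 2138 (64.9%, 63.2% to 66.5%) met a peak of V/SVZ, against 63.3%. At 2120 peaks paired 1 to 1, V/SVZ had a median of 15 tags and CP of 29. CP was the higher in 87.8%, against 84.2% on the other autosomes. Tags were not scaled for depth, so a higher CP count cannot be read as more methylation. The median CP to V/SVZ tag ratio was 1.91 (quartiles 1.33 and 2.67), against 1.8 at 29977 pairs on the other autosomes. It was 2.05 at the 613 pairs of bins 1 to 7 and 1.83 at the 1507 pairs of the later bins.

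The direct lists mostly repeat control peaks. A V/SVZ over CP peak overlapped 948 V/SVZ control peaks (29.7%, 28.2% to 31.4%), against 35.6% over all chromosomes and 36.7% on the other autosomes. A CP over V/SVZ peak overlapped 952 CP control peaks (28.9%, 27.4% to 30.5%), against 28.5% over all chromosomes and 27.5% on the other autosomes. All 948 and 952 of those direct peaks had the same start and end as the control peak. A further 190 V/SVZ over CP peaks (16.7%) and 334 CP over V/SVZ peaks (25.5%) lay in neither control list. The shares in neither list were 14.8% and 21.2% over all chromosomes, and 14.8% and 21.5% on the other autosomes. Over all chromosomes 6299 V/SVZ and 15993 CP control peaks are unlisted, so the direct lists cannot be compared by this share. Only 3 peaks of each direct list overlapped a peak of the other. The direct lists were used in choosing the chromosome, so nothing is read from how these shares differ from those of other chromosomes.

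Chromosome 7 peaks more often had a gene within 10 kb than those of the other autosomes. No gene lay within 10 kb of 35.8% of V/SVZ and 41.0% of CP control peaks, against 45.3% and 49.0% elsewhere. Peaks inside a gene made up 50.1% and 44.0%, against 44.4% and 40.3%. The control peaks of the chromosome held 74925 V/SVZ tags over 1.42 Mb, a mean of 23.5 per peak, and 126188 CP tags over 1.56 Mb, a mean of 38.3.

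Gene groups were described by the number of members that carried a direct peak inside the gene or within 10 kb, among members with a control peak in either tissue. Of 1155 such genes on the chromosome, 541 (46.8%) held V/SVZ over CP and 663 (57.4%) CP over V/SVZ peaks, against 54.6% and 57.0% over all chromosomes. On the other autosomes the values were 57.3% and 56.1%. A peak near several genes counts for each of them, so members of a cluster are not independent. The direct lists were used in choosing the chromosome. Nothing is therefore read from differences with the other autosomes, for all genes or for the groups below.

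Of 25 imprinted genes with a control peak, 17 (68.0%) carried a CP over V/SVZ peak and 10 (40.0%) the opposite, beside 57.4% and 46.8% of all genes of the chromosome. The distinct peaks numbered 26 and 13, a ratio of 2.0 (0.991 to 4.24), an interval that contains the 1.05 of all gene-linked peaks. The carriers were 12 and 7 with peaks that overlap the gene only. In the Peg3 domain, another CP over V/SVZ peak downstream of Usp29 had 98 CP and 21 V/SVZ tags, a ratio of 4.67 (2.89 to 7.87). A V/SVZ over CP peak of 20 tags also lay at Peg3, overlapping the CP control peak of 262 tags.

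In the Snrpn and Ube3a domain the promoter of Snrpn and Snurf, which overlaps the imprinting centre, had 43 V/SVZ and 107 CP tags, a ratio of 2.49 (1.73 to 3.63), and no direct peak. The promoter of Ndn, a growth suppressor of neurons, had 16 and 71, a ratio of 4.44 (2.55 to 8.18), and no direct peak either. Between the Ndn and Mkrn3 peaks, with no gene within 10 kb, lay a CP over V/SVZ peak at chr7:69521720-69523209 with 140 CP tags and no listed V/SVZ control peak. Between the Ube3a and Snrpn peaks lay a V/SVZ over CP peak at chr7:67105462-67106044 with 49 V/SVZ and 8 CP tags, a ratio of 0.163 (0.0668 to 0.348). Ube3a, the ubiquitin ligase lost in Angelman syndrome in humans, held a V/SVZ over CP peak of 17 V/SVZ tags where CP had 14, a ratio of 0.824 (0.376 to 1.78). The domain thus held direct peaks of both lists.

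In the domains of Igf2, H19 and Kcnq1 both directions occurred as well. Igf2, a fetal growth factor expressed from the paternal copy, shares 2 CP over V/SVZ peaks with its antisense gene Igf2as, of 13 and 37 CP tags, and their largest control peak had 64 V/SVZ and 160 CP tags, a ratio of 2.5 (1.86 to 3.40). H19, a noncoding RNA gene expressed from the maternal copy, had a V/SVZ over CP peak of 25 tags 1465 bp upstream of its start, in neither control list. Inside H19 the tissues had 31 and 38 tags, a ratio of 1.23 (0.743 to 2.04). Kcnq1, a potassium channel gene, carried 3 V/SVZ over CP and 7 CP over V/SVZ peaks. The largest of the former had 51 V/SVZ and 26 CP tags, a ratio of 0.510 (0.305 to 0.833), and the largest of the latter had 28 and 89, a ratio of 3.18 (2.06 to 5.05).

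A peak near the placental genes Phlda2, Nap1l4 and Slc22a18 had 6 and 28 tags, a ratio of 4.67 (1.90 to 13.8). Dhcr7, an enzyme of cholesterol synthesis, had an intragenic CP over V/SVZ peak of 13 and 50 tags, a ratio of 3.85 (2.06 to 7.72). Th, the first enzyme of dopamine synthesis, had 24 and 50, a ratio of 2.08 (1.26 to 3.54). Inpp5f, a phosphoinositide phosphatase with an imprinted transcript, had a CP over V/SVZ peak of 193 tags over a V/SVZ control peak of 77 tags, with no listed CP control peak. Tnfrsf22 carried no direct peak, and its neighbour Tnfrsf23 carried 2 V/SVZ over CP peaks and 1 CP over V/SVZ peak.

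Chemosensory receptor genes were counted among those that RefSeq places on the chromosome. The share of all such genes with a listed control peak was not computed, so the receptor counts have no background. Of 294 olfactory receptor genes that RefSeq places on the chromosome, 69 had a control peak, and 15 (21.7%) carried a V/SVZ over CP and 21 (30.4%) a CP over V/SVZ peak, against 24.9% and 36.2% of such genes on the other autosomes. The distinct peaks numbered 13 and 24, a ratio of 1.85 (0.903 to 3.95). With peaks that overlap the gene only, the carriers were 7 and 4, so the order of the lists turned. A peak downstream of Olfr46 had 53 V/SVZ and 227 CP tags, a ratio of 4.28 (3.16 to 5.89), and a peak downstream of Olfr478 had 44 and 177, a ratio of 4.02 (2.88 to 5.73). A V/SVZ over CP peak in Olfr648, also near Olfr649, had 29 V/SVZ tags and no listed CP control peak.

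Of 282 vomeronasal receptor genes, which serve pheromone detection, 24 had a control peak. A V/SVZ over CP peak was carried by 3 (12.5%) and a CP over V/SVZ peak by 11 (45.8%), against 22.6% and 48.4% on the other autosomes. The distinct peaks numbered 3 and 15, a ratio of 5.0 (1.41 to 26.9), and with peaks that overlap the gene only the carriers were 1 and 5. V1rd10 had 17 V/SVZ and 73 CP tags, a ratio of 4.29 (2.51 to 7.77), and Vmn2r35 and Vmn2r62 had 17 and 15 CP tags and no listed V/SVZ control peak. In the V/SVZ over CP list, at V1rd22 and Vmn2r69, V/SVZ had 12 and 14 tags and CP had 16 and 17, so a V/SVZ over CP call did not require fewer CP tags.

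Zinc finger genes, many of which encode repressors with DNA-binding fingers, lie in several clusters of the chromosome. Control peaks were listed at 63 of them, of which 18 (28.6%) held a V/SVZ over CP and 37 (58.7%) a CP over V/SVZ peak, against 47.0% and 55.7% on the other autosomes. The distinct peaks numbered 28 and 45, a ratio of 1.61 (0.981 to 2.68), of which 20 and 34 lay in bins 1 to 7. The carriers were 12 and 20 with peaks that overlap the gene only. Zfp768 and the integrin gene Itgal shared the most significant CP over V/SVZ peak of the chromosome within a control peak, with 126 V/SVZ and 486 CP tags, a ratio of 3.86 (3.16 to 4.73). Zfp629 had 546 CP tags in a direct peak in neither control list. Zfp524 had 500 CP tags over a V/SVZ control peak of 137 tags, and Zfp568 had 34 CP tags and no listed V/SVZ control peak. In the other list, Zfp606 had 15 V/SVZ tags, Zscan5b 8 and Zfp780b 6, with no listed CP control peak.

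The smaller clusters had too few members for their order to be read. Of 14 kallikrein genes, which encode serine proteases, 2 carried a V/SVZ over CP and 7 a CP over V/SVZ peak. A peak near Klk1 and Klk1b5 had 11 V/SVZ and 52 CP tags, a ratio of 4.73 (2.44 to 10.05), and a peak in Klk9 near Klk10 had 13 and 46, a ratio of 3.54 (1.88 to 7.14). Of 16 carcinoembryonic antigen and pregnancy-specific glycoprotein genes, 3 and 8 did, and a peak downstream of Psg26 had 65 and 269 tags, a ratio of 4.14 (3.15 to 5.51). Of 9 cytochrome P450 family 2 genes, 3 (33.3%) and 1 (11.1%) did, against 56.5% and 47.8% of such genes on the other autosomes. Cyp2s1 had 50 V/SVZ and 36 CP tags, a ratio of 0.720 (0.456 to 1.13), and Cyp2b13 had 10 and 48, a ratio of 4.80 (2.40 to 10.6). Of 8 tripartite motif genes, 1 (12.5%) and 3 (37.5%) did, against 45.9% and 51.4% of such genes on the other autosomes. Trim66 had 8 and 36 tags, a ratio of 4.50 (2.06 to 11.2).

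In the smallest clusters, 2 and 3 of 6 Mas-related receptor genes, 1 and 2 of 3 sialic acid-binding lectin genes, 0 and 2 of 2 androgen-binding protein genes and 1 and 1 of 2 GABA-A receptor genes carried a direct peak. Mrgpre carried a direct peak of each list. The most significant direct peak of the lectin gene Cd22 is the Ffar1 promoter peak. The beta globin genes Hbb-b1 and Hbb-b2 shared a single CP over V/SVZ peak upstream of both, with 10 V/SVZ and 40 CP tags, a ratio of 4.0 (1.97 to 8.97). Gabrg3 had a CP over V/SVZ peak of 13 and 60 tags, a ratio of 4.62 (2.51 to 9.17), and a V/SVZ over CP peak of 17 and 13.

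Genes of oocytes and sperm carried V/SVZ over CP peaks in 6 of 12 and CP over V/SVZ peaks in 4 of 12. Zp2, a protein of the egg coat, held the most significant V/SVZ over CP peak within a control peak, at chr7:127283752-127284417, with 52 V/SVZ tags and no listed CP control peak. The NLR genes Nlrp2 and Nlrp4a had V/SVZ over CP peaks of 9 and 6 tags, and Nlrp4a, Nlrp4b and Nlrp9c had CP over V/SVZ peaks of 8, 9 and 8 tags. Carriers numbered 3 and 1 with peaks that overlap the gene only. Izumo1, the sperm protein of gamete fusion, had a CP over V/SVZ peak of 27 tags in neither control list.

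Genes of neurons and cortical development held more V/SVZ over CP peaks, 80 against 40, a ratio of 0.5 (0.333 to 0.740), while all gene-linked peaks of the chromosome numbered 746 and 786, a ratio of 1.05. Of 36 such genes, 25 (69.4%) carried a V/SVZ over CP and 22 (61.1%) a CP over V/SVZ peak. Over all genes of the chromosome these shares were 46.8% and 57.4%. With peaks that overlap the gene only, 21 and 22 of the group did. Bins 8 to 31 held 74 of the 80 and 39 of the 40 peaks, and there all gene-linked peaks numbered 551 and 506. Odz4 contributed 15 of the 80, and Nav2, a navigator protein of neurite growth, 11. Peaks of the same gene were counted as independent, so the interval can be too narrow. Grm5, a metabotropic glutamate receptor, had 46 V/SVZ and 20 CP tags in a V/SVZ over CP peak, a ratio of 0.435 (0.244 to 0.750). Chrna7, a nicotinic receptor subunit, had 17 V/SVZ tags, Nell1 12 and Crym 11, with no listed CP control peak. On the CP side, Nav2 had an intragenic peak of 11 and 98 tags, a ratio of 8.91 (4.77 to 18.4), and Mef2a, a transcription factor of neurons and muscle, had 41 CP tags and no listed V/SVZ control peak.

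Genes of the cell cycle and of progenitors numbered 11, with 10 V/SVZ over CP and 11 CP over V/SVZ distinct peaks. Carriers were 5 (45.5%) and 3 (27.3%), beside 46.8% and 57.4% of all genes of the chromosome. With peaks that overlap the gene only, the carriers were 2 and 3, so the order turned. Igf1r, the receptor of insulin-like growth factor, carried 6 and 5. Numbl, a regulator of Notch signalling in progenitors, had a CP over V/SVZ peak of 73 tags in neither control list, and Plk1, a mitotic kinase, had a V/SVZ over CP peak of 6 tags. These genes did not lie on a single side of the comparison.

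**Figure D4:**
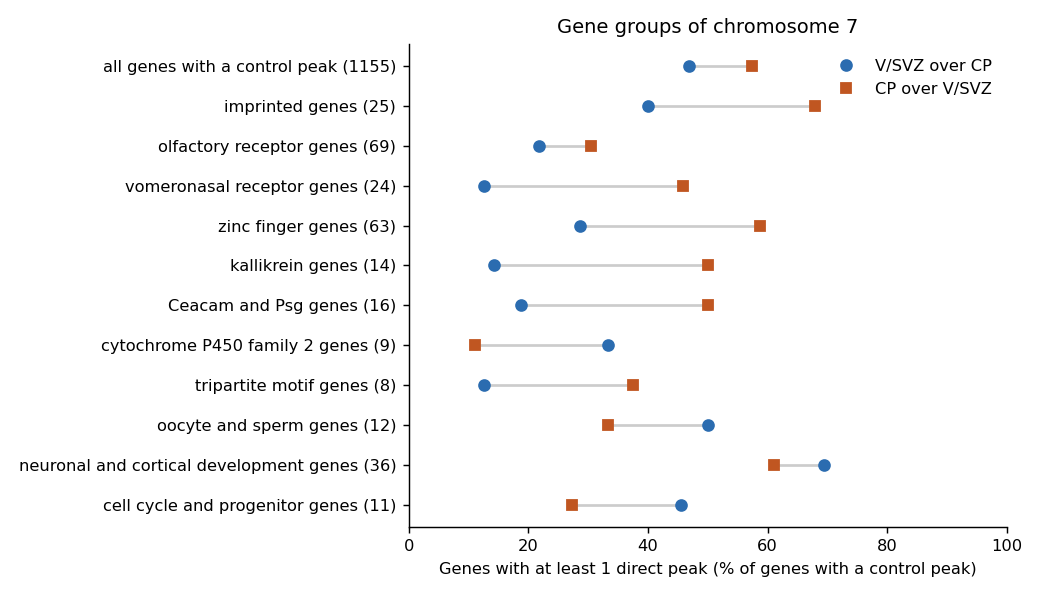
Share of genes with at least 1 direct peak, on the x axis in percent of the genes with a control peak, for each gene group of chromosome 7 with 8 or more such genes, whose number stands in brackets. The V/SVZ over CP and CP over V/SVZ markers lie at 46.8% and 57.4% for all genes, 40.0% and 68.0% for imprinted genes and 69.4% and 61.1% for neuronal genes. For olfactory receptor, neuronal and cell cycle genes their order turned with peaks that overlap the gene only.

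Among the most significant direct peaks within a control peak, several lay away from gene starts. On the CP side, a peak near 4933421I07Rik had 7 V/SVZ and 73 CP tags, a ratio of 10.4 (4.81 to 26.9). A peak near the ribosomal protein gene Rps3 and Gm5775 had 14 and 115, a ratio of 8.21 (4.70 to 15.5), and one downstream of Mapk1ip1 had 158 and 540, a ratio of 3.42 (2.86 to 4.11). A peak shared by 6330408A02Rik and the DNA ligase gene Lig1 had 27 CP tags, and a peak in Tph1, an enzyme of serotonin synthesis, had 18, both with no listed V/SVZ control peak.

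In the V/SVZ over CP list, a peak near Ppp1r14a and the protease inhibitor gene Spint2 had 21 tags, and a peak in Igf1r had 15, both with no listed CP control peak. A peak with no gene within 10 kb at chr7:126341967-126342310 had 65 V/SVZ and 21 CP tags, a ratio of 0.323 (0.188 to 0.535), and another at chr7:4056128-4056626 had 267 and 210, a ratio of 0.787 (0.653 to 0.946). A further 2 such peaks, at chr7:75590622-75590910 and chr7:52510570-52511321, had 32 and 26 V/SVZ tags and no listed CP control peak.

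Of the genes with the most direct peaks, some held both lists in like numbers and others mostly a single list. Sipa1l3, a regulator of Rap signalling, held 12 V/SVZ over CP and 10 CP over V/SVZ peaks, Nav2 held 11 and 7, and Abcc8, the sulfonylurea receptor, held 10 and 6. Uvrag, an autophagy gene, held 9 and 4, and 9030624J02Rik held 6 and 6. Odz4 held 15 and 3, and Dock1, Sergef and Tacc2 held 8 and 2 each. On the CP side, Ryr1 held 2 and 8, Mark4, a microtubule-regulating kinase, 2 and 6, and Kndc1 0 and 5. Dock1, Sergef, Tacc2 and Kndc1 were named after their values were seen.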

How the data were processed

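MBD-seq profiles of V/SVZ and CP, with 1 library each, were taken from 4 deposited peak tables, each with a line per peak and per transcript within 10 kb. Per the submitters' processing notes, CASAVA 1.8, Bowtie and mm9 were used. The columns are those of MACS, per the file headers, and the nature of the control is not given in the sources used here. The tags of a peak are a deposited count of reads, not normalized. The significance is a score deposited by the authors, the negative log10 of p times 10, the fold a deposited ratio to the local expectation, and the false discovery rate a deposited percent. Tag ratios were left unscaled, since no library total was at hand. Coordinates are 1-based, and the deposited lengths fit this in 100% of peaks.

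Both control tables stop at 65535 lines, at folds of 11.48 for V/SVZ and 14.71 for CP. A total of 6299 and 15993 numbered peaks are not in them, so a region without a listed control peak may hold an unlisted one.

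Peaks were counted once per name and table. Overlap was counted from 1 bp, shares carry Wilson intervals and ratios of counts exact binomial intervals. Reads lack molecular identifiers, so these can be too narrow. Tag ratios used the summed tags of the overlapping control peaks. The counting was tested on simulated data. Of 1162 gene IDs on the chromosome, 1157 were in a RefSeq gene table of GRCm38.p6. Python 3.11.15, pandas 2.3.3, numpy 2.4.6 and scipy 1.17.1 were used.

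The chromosome, the 16 gene lists and the tests were chosen with earlier results of these data known. Named genes were, for each direct list, those of the 10 peaks of highest significance that overlap that tissue's control peaks, of up to 15 promoter peaks, the 5 with most peaks (with ties), up to 4 members of each list by significance, those of the 5 control promoter peaks with most tags, and up to 5 genes of each bin described. Single imprinted genes, the remaining promoter genes and others said to be so were named after their values were seen. Alternatives were direct peaks within control peaks, peaks at or above the median significance, other bins, promoter windows, gene assignments, overlaps and control folds.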

Additional observations from a re-analysis of the deposited data

How the results depend on the processing

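Of the main values, 18 alternatives left the value within its interval or within 1.5 times of the count, and 14 moved it. With direct peaks limited to those that overlap their own tissue's control peaks, the share of bins with a ratio above 1 was 46.7% in place of 56.7%. With peaks that overlap the gene only, the order of the V/SVZ over CP and CP over V/SVZ counts turned for olfactory receptor genes (7 and 4 in place of 15 and 21), neuronal genes (21 and 22 in place of 25 and 22) and cell cycle genes (2 and 3 in place of 5 and 3). With direct peaks limited to own control peaks, the ratio for the chromosome was 1.00 and that of bins 8 to 31 was 0.858. The cut of the control lists, at folds of 11.48 for V/SVZ and 14.71 for CP, enters the values under this limit. At or above the median significance, the ratio in bins 1 to 7 was 2.10, 302 genes carried a V/SVZ over CP and 401 a CP over V/SVZ peak, and the control peaks that held a direct peak were 15.6% in V/SVZ and 15.7% in CP. With peaks that overlap the gene only, 340 and 408 genes carried them. Counting peaks within 1 kb upstream as promoter peaks gave 19 for V/SVZ over CP and 26 for CP over V/SVZ. The CP control peaks shared with V/SVZ were 61.5% when at least 50% of the peak had to overlap. With control peaks of fold 15 or more in both lists, 71.8% of V/SVZ and 61.6% of CP control peaks were shared. Smaller sets of peaks give fewer calls by construction, and the cause of the other shifts was not tested. Among the counts for single gene groups, 55 alternatives stayed within 1.5 times and 41 did not.

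No paired analysis was possible because each tissue has 1 library and no test was made, and for the same reason no replicate was left out. The median V/SVZ control peak at a promoter had 20 tags, and ratios at such counts carry wide intervals.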

Other observations

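Over the 30 bins of 5 Mb with peaks, the direct ratio followed other measures of the same libraries. On log2 scales, Pearson's r was 0.637 with the median tag ratio of shared control peaks and 0.648 with the ratio of CP to V/SVZ control peaks, and 0.0173 with the number of genes that had peaks. The bins share both libraries and the same peak calls, so these are descriptions of 2 libraries.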
